A study of Mus musculus with 118 samples.

Results

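Of the 7438 SUZ12 peaks deposited for mouse embryonic stem cells (ESCs), 281 shared no base with any of the 18643 RING1B peaks, which is 3.78% of the list (95% Wilson interval 3.37% to 4.24%). These 281 peaks are the sites described here, called RING1B-free SUZ12 peaks. They were chosen from the measured start and end positions of the peaks in both lists and nothing else, so the absence of a RING1B peak is how they were found and not a result. A site without a RING1B peak is a site that did not pass the rules of that list, and it is not shown to be free of RING1B protein.

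The series profiled Polycomb factors and histone modifications by calibrated ChIP-seq in 118 samples that fall into 42 groups of cell line, treatment and antibody or Input. Only peak positions from untreated cells were used here. The SUZ12 list rests on 3 untreated samples of the PRC1CPM line and 3 of the PRC1CKO line. The labels give 3 untreated PRC1CPM samples for RING1B and 3 for PCGF2. The RING1B data in PRC1CKO cells that also went into the RING1B list were not analysed here. PRC1CPM cells carry Ring1aI50A/D53K, in which RING1A already lacks catalytic activity before any treatment, and a floxed Ring1b allele that tamoxifen switches to I53A/D56K. PRC1CKO cells are Ring1a-/- and carry Ring1bfl/fl, so that tamoxifen removes RING1B. Both lines carry Rosa26::ERT2-Cre on an E14 background, and each is a single clone (41 for PRC1CPM and B9 for PRC1CKO). The replicates are therefore samples of a single clone per line, untreated cells of both lines lack normal RING1A, and the lists hold no wild-type cells. The peak lists combine the samples, so no value here has a replicate error.

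SUZ12 is a core subunit of Polycomb repressive complex 2 (PRC2), which deposits H3K27me3 on histone H3. RING1B is the catalytic core of Polycomb repressive complex 1 (PRC1), which deposits H2AK119ub1 on histone H2A, and PCGF2 is a subunit of canonical PRC1 complexes, which recognise the PRC2 mark. In ESCs both complexes are best known from CpG islands at the promoters of silent developmental genes, where they occupy the same sites.

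The RING1B-free peaks held little of the CpG-dense sequence that marks a CpG island, and the differences among them are easiest to see in the DNA itself. The 300 bp windows printed here are those with the most CpG dinucleotides inside 6 of the peaks, with no base in an annotated exon. They are the GRCm38.p6 (mm10) sequence as given by RefSeq, from 5′ to 3′, with each CpG in capitals. Npas4 and Pik3r5 are shown because their peaks are the widest that contain a transcription start site (TSS), Prdm12 and Hes5 because their peaks are wide and have RING1B close by, and Dock2 and Bcl11a because their peaks overlap PCGF2. Each window is named after the gene with the nearest TSS.

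Npas4, chr19:4989214-4989513, forward strand: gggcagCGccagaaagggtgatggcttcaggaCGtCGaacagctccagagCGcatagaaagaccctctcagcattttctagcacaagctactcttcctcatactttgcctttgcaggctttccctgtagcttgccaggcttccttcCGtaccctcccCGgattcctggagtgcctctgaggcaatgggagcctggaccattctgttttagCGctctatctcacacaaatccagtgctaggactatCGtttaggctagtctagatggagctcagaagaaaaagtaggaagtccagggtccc
Pik3r5, chr11:68432468-68432767, forward strand: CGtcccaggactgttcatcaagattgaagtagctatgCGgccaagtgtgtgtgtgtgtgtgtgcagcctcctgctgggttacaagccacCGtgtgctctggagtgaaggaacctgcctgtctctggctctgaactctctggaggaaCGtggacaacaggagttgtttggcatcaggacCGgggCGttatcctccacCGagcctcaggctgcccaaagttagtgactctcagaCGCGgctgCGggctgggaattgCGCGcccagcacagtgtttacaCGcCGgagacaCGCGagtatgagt
Prdm12, chr2:31646768-31647067, forward strand: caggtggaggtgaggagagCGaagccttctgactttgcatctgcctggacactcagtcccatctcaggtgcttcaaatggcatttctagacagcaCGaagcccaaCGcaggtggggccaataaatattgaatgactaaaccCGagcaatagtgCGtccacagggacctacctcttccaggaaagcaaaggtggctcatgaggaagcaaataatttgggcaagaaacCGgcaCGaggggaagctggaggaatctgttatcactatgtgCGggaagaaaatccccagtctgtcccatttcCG
Hes5, chr4:154949612-154949911, forward strand: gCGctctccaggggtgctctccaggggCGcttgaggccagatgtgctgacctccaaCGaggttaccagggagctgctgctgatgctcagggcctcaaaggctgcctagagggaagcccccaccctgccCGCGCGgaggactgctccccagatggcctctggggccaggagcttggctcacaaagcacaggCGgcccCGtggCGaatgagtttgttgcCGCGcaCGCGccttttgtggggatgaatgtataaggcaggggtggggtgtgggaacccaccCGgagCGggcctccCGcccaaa
Dock2, chr11:34682074-34682373, forward strand: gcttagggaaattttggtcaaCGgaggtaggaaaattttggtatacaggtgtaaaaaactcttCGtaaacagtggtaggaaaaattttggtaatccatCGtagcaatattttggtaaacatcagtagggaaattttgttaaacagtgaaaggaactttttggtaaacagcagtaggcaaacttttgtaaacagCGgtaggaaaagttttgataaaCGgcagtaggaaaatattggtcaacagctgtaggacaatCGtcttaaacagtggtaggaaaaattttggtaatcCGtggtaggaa
Bcl11a, chr11:24060727-24061026, forward strand: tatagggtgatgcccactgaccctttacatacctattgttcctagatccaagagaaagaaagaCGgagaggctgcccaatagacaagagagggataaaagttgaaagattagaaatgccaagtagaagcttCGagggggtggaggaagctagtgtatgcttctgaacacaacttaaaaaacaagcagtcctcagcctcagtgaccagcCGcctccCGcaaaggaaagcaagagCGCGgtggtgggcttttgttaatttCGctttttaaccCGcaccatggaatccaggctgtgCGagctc

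Even these windows, the most CpG-dense outside annotated exons, differed widely. The Npas4 window held 8 CpGs and lay 608 bp downstream of the TSS, in an intron. The whole Npas4 peak, exons included, held 104 CpGs in 3624 bp, so this window does not stand for its densest part. The Pik3r5 window held 16 CpGs and was centred 492 bp downstream of the TSS, also inside the gene. The Prdm12 window held 9 CpGs, and that of Hes5 held 16. The Dock2 window held 7 CpGs in a sequence of 36.3% GC, and the Bcl11a window held 9.

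RING1B-free peaks were narrow. They ranged from 171 to 3891 bp, with the central 50% between 567 and 1286 bp. They were 54 of the 295 SUZ12 peaks of at most 500 bp (18.3%) and 120 of the 963 from 500 to 1000 bp (12.5%). Among wider peaks the share was 5.21% from 1000 to 2000 bp and 0.978% from 2000 to 4000 bp. None of the 2464 SUZ12 peaks over 4000 bp was RING1B-free. A narrow peak has fewer bases with which to meet a RING1B peak, so width enters the rule, and this gradient is given as a description. Where it could matter, the comparisons that follow are repeated between the 141 RING1B-free peaks and the 1240 SUZ12 peaks with RING1B that were 567 to 1286 bp wide.

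RING1B was often close by. The gap, counted as the bases between a peak and the nearest RING1B peak, ran from 14 to 2497516 bp with a median of 4829 bp. It was at most 500 bp for 24 peaks and above 500 bp and up to 1000 bp for 51, and 21 peaks lay more than 100 kb from any RING1B peak. The 141 peaks with RING1B within 5 kb, called near peaks, had a median gap of 888 bp. The other 140, called far peaks, had a median gap of 23600 bp. The chromatin was sheared to about 0.5 kb on average according to the labels, so the shortest gaps are close to the resolution of the assay. The cut at 5 kb was set for description, and moving it to 2 kb or 10 kb put 109 or 174 peaks in the near set.

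**Figure D1:**
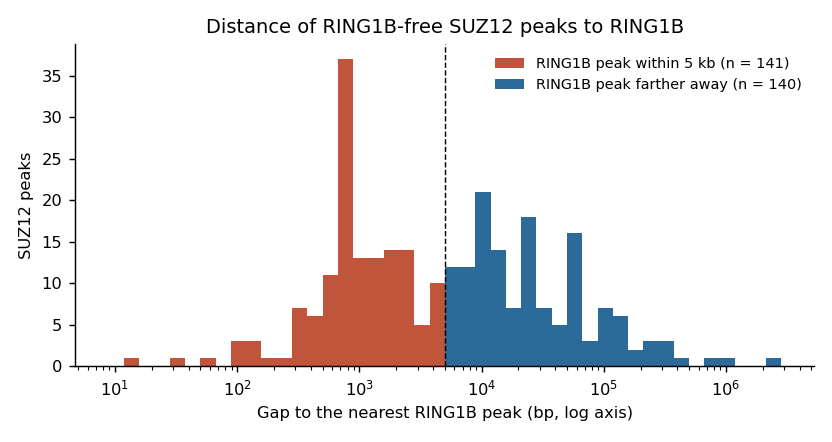
Number of RING1B-free SUZ12 peaks (vertical axis) by the gap in bp to the nearest RING1B peak (horizontal log axis), with near peaks in red, far peaks in blue and the 5 kb cut as a dashed line. The near peaks are most frequent just under 1 kb, around their median of 888 bp, and the far peaks spread over a wide range around a median of 23600 bp.

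At the edge of the rule, the smallest gaps were 14 bp at chr2:147305513-147307661 in an exon of Nkx2-2os, 37 bp at chr12:86216002-86216633 between genes near Gpatch2l, and 52 bp at chr15:53346888-53347299 at the Ext1 promoter. The smallest overlaps that kept a SUZ12 peak out of the set were 7 bp at chr5:37891979-37893395 near Gm20052, 25 bp at chr14:57733851-57735719 near Lats2 and 56 bp at chr11:114847205-114848078 near Gprc5c. The CpG content of these peaks ranged from 0.272 to 0.298 inside the rule and from 0.177 to 0.274 outside it, on the observed/expected scale explained with the sequence results.

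Near peaks stood beside Polycomb domains. The nearest RING1B peak carried SUZ12 for 113 of 141 near peaks (80.1%, 72.8% to 85.9%) and for 73 of 140 far peaks (52.1%, 43.9% to 60.2%), a difference of 28.0 percentage points (95% Newcombe interval 17.1 to 38.0). Over all RING1B peaks the share with SUZ12 was 37.9%. PCGF2 was present on the nearest RING1B peak of 70 near peaks (49.6%, 41.5% to 57.8%), and on 19.1% of all RING1B peaks. The nearest RING1B peaks were wide, with a median of 2632 bp where that of all RING1B peaks was 1495 bp. A SUZ12 peak that does have RING1B lay within 5 kb of 121 near peaks and of 2 far peaks. The low count for far peaks nearly follows from the split, since a far peak has no RING1B peak within 5 kb. For 30 near peaks RING1B lay within 5 kb on both sides, and for 111 on a single side. All intervals given here take each peak as an independent count and hold no error between cultures, although neighbouring peaks can belong to a single domain.

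Some of those neighbouring RING1B peaks lay over developmental regulators. The nearest RING1B peak contained a TSS for 81 of 141 near peaks (57.4%), close to the 58.8% of all RING1B peaks that contain one. Gene lists were then looked up, drawn up by symbol pattern, so they can leave out other genes of a kind. The nearest RING1B peak contained the TSS of a gene on the homeobox list, the transcription factor family that patterns the embryo, for 6 near peaks (4.26%), and 0.713% of all RING1B peaks did. Among these, a 1237 bp peak lay 1384 bp from the RING1B peak that spans the Hoxb genes, and the others lay beside Emx1, Evx1, Lmx1b, Nkx1-1 and Prox1. RING1B peaks over the TSS of Neurog1, Foxd1, Foxl2, Sox10 and Wt1, all transcription factors of cell lineages, also had a near peak beside them (names chosen after the values were seen). The gap was 609 bp at Neurog1, 448 bp at Foxd1, 669 bp at Foxl2, 1171 bp at Sox10 and 1321 bp at Wt1. The other lists that were looked up gave 0 to 3 near peaks each. The clustered protocadherins gave 2 (1.42%, and 0.139% of all RING1B peaks) and the microRNA genes 3 (2.13% and 0.740%). Zinc finger genes and solute carriers gave 0, where 1.38% and 1.27% of all RING1B peaks covered such a TSS, and pluripotency factors gave 0 where 0.0697% did. These are counts of few peaks, and nothing is read from the zeros. All RING1B peaks are also not a like baseline for these shares. The RING1B neighbours of near peaks carried SUZ12 in 80.1% of cases, against 37.9% of all RING1B peaks, and were wider. Shares over RING1B peaks with SUZ12 alone were not computed, so no excess of developmental genes is read from these counts.

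Several of the 10 widest RING1B-free peaks showed this arrangement. At Prdm12, a transcription factor of developing pain-sensing neurons, a peak of 2821 bp at chr2:31645958-31648778 lay in an intron. Its RING1B neighbours were 891 bp away on the left, in a peak of 14019 bp over the TSS, and 1141 bp away on the right. A peak of 2427 bp at chr4:154949082-154951508 lay 10628 bp upstream of Hes5, a transcriptional repressor induced by Notch, and 1080 bp from a RING1B peak. The Psd peak, 2209 bp at chr19:46322140-46324348 and centred in an exon of that gene, had RING1B 788 bp away on the left and 1632 bp away on the right. At each of these 3 sites a SUZ12 peak with RING1B was also close, with gaps of 794 bp at Prdm12, 779 bp at Hes5 and 769 bp at Psd.

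The other wide peaks were placed differently. The Pappa intron peak had RING1B 802 bp away, but the nearest SUZ12 peak with RING1B was 112256 bp away. At Fam221b, a peak of 2799 bp at chr4:43662468-43665266 lay 3450 bp from a RING1B peak that contains the TSSs of Fam221b and Tmem8b. The most CpG-dense window of the Fam221b peak outside annotated exons, with 21 CpGs, fell in the pseudogenes Gm12481 and Gm4748. At Pik3r5, which encodes a regulatory subunit of phosphoinositide 3-kinase, a peak of 3060 bp at chr11:68430128-68433187 contained the TSS and lay 26978 bp from the 21954 bp RING1B peak over Ntn1. Npas4, an activity-induced transcription factor of neurons, had a gap of 26651 bp, to a RING1B peak over the TSS of Mrpl11. The widest RING1B-free peak, near 5430431A17Rik, lay 9018 bp from RING1B, and 1 member of the clustered protocadherins, Pcdhb13, had a peak of 2766 bp.

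**Figure D2:**
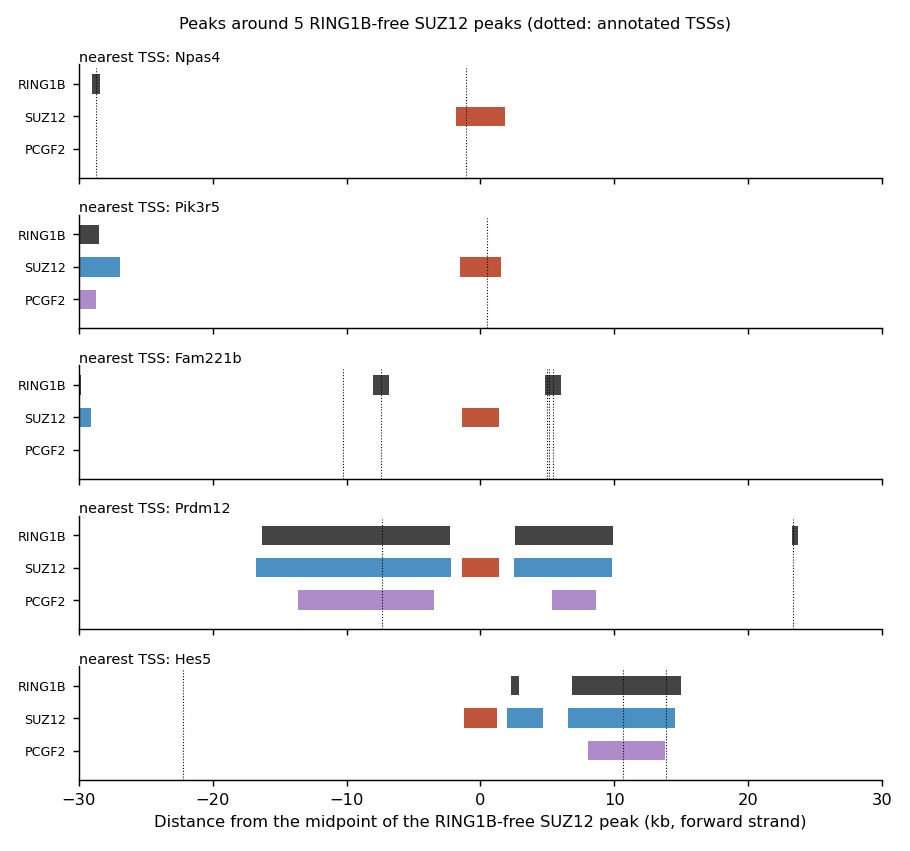
Peaks of RING1B (dark grey), SUZ12 (blue, with the RING1B-free peaks in red) and PCGF2 (purple) within 30 kb of 5 RING1B-free SUZ12 peaks, drawn to scale against the distance in kb from the midpoint of the RING1B-free peak, with annotated TSSs dotted. At Prdm12 and Hes5 a RING1B peak lies 891 and 1080 bp from the RING1B-free peak, while at Npas4 and Pik3r5 the RING1B-free peak covers a TSS and has no RING1B peak nearer than 26 kb.

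The sequence of near and far peaks differed. CpG content was measured as CpG observed/expected, the number of CpGs relative to that expected from the C and G content, in the 1 kb around each midpoint. Its median was 0.234 for near peaks (95% interval of the median 0.210 to 0.246) and 0.450 for far peaks (0.430 to 0.484). SUZ12 peaks with RING1B had a median of 0.603, and those 567 to 1286 bp wide had 0.614. Of these sets the near peaks were the poorest in CpG, and the far peaks lay between them and the RING1B-bound sites. A near peak had a lower CpG observed/expected than its nearest RING1B peak in 123 of 141 cases, with a median of 0.514 for the RING1B peaks. The bases between them, taken whole for the 132 near peaks with a gap of at least 200 bp, had a lower median of 0.185. Their median repeat share was 21.7%, and that of the near peaks was 12.9%. The 1 kb windows can reach into these bases, so the CpG values are not of like measure.

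**Figure D3:**
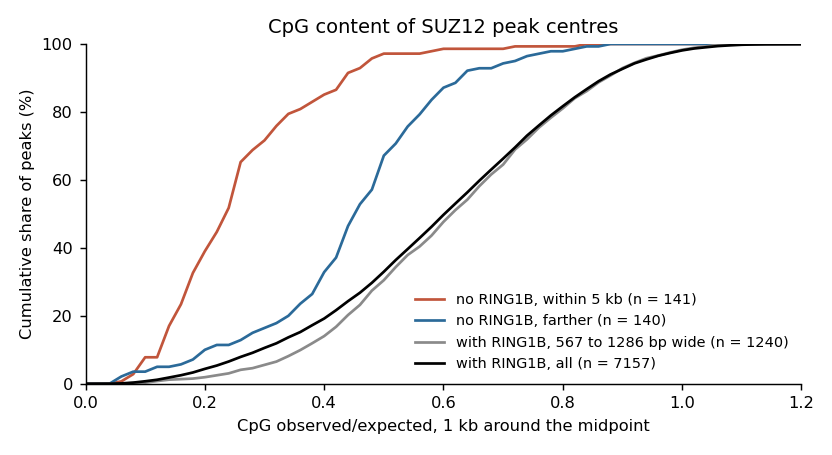
Cumulative share of peaks (vertical axis, percent) by CpG observed/expected in the 1 kb around the midpoint (horizontal axis) for near peaks (red), far peaks (blue), SUZ12 peaks with RING1B of 567 to 1286 bp (grey) and all SUZ12 peaks with RING1B (black). The near peaks reach 50% at the lowest CpG content, with a median of 0.234, the far peaks follow at 0.450, and both groups with RING1B lie to the right with medians of 0.603 and 0.614.

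A centre was called CpG-rich when its CpG observed/expected was at least 0.6 and its GC content at least 50%. This held for 15 of 281 RING1B-free peaks (5.34%, 3.26% to 8.62%), where 46.7% of all SUZ12 peaks passed. Within the 567 to 1286 bp range the shares were 2.84% without and 49.8% with RING1B, a difference of -46.9 percentage points (-50.2 to -41.9). Of the 15, 13 were far peaks (9.29%) and 2 were near peaks (1.42%), a difference of 7.87 points (2.64 to 13.9). Restricting both sets to promoters left 8.18% against 54.1%, and restricting both to sites away from promoters left 3.51% against 27.1%. The highest value, 0.861, belonged to a 669 bp peak at the TSS of Cacng2, a regulatory subunit of AMPA-type glutamate receptors, 54464 bp from RING1B.

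Of 5 short motifs that were searched, CGCG showed the same order of near, far and RING1B-bound peaks as the CpG content, and the others did not. CGCG, which reads the same on both strands, occurred in the central 500 bp of 19.1% of near peaks (13.5% to 26.4%), 52.9% of far peaks (44.6% to 60.9%) and 71.0% of RING1B-bound SUZ12 peaks of 567 to 1286 bp, and in 55.4% of 500 bp windows around all TSSs. CGCG is itself made of CpGs, and its window lies within the 1 kb used for CpG content. Its order can therefore largely follow from the CpG content. The repeat motifs GAGAGAGA and CACACACA, searched on both strands, were found in 5.69% and 6.76% of RING1B-free peaks, in 7.27% and 8.38% of RING1B-bound SUZ12 peaks, and in 6.94% and 7.82% of TSS windows. CACACACA ran the other way from CGCG, with 10.6% of near peaks (15 of 141, 6.55% to 16.8%) and 2.86% of far peaks (4 of 140, 1.12% to 7.12%). These intervals overlapped, and the counts are small. Parts of the motif of REST, a repressor of neuronal genes, were also searched on both strands. GGACAGC was present in 12.8% of RING1B-free peaks, 14.0% of RING1B-bound SUZ12 peaks and 12.7% of TSS windows, and TTCAGCACC in 0.356%, 0.601% and 0.753%. The GGACAGC shares of near and far peaks were 17.0% (11.7% to 24.1%) and 8.57% (4.97% to 14.4%).

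Repeat-rich peaks were more common among RING1B-free peaks, although the typical repeat content was not higher over all widths. The median repeat share was 10.1% in RING1B-free peaks and 10.9% in RING1B-bound SUZ12 peaks, and at 567 to 1286 bp it was 10.4% and 6.43%. It was 12.9% in near and 7.70% in far peaks. Peaks with at least 25% repeat sequence were 42 of 281 (14.9%, 11.3% to 19.6%), against 4.73% of all SUZ12 peaks. At 567 to 1286 bp the shares were 10.6% without and 4.52% with RING1B, a difference of 6.12 points (1.83 to 12.4). At peaks overlapping a promoter they were 6.36% without (3.12% to 12.6%) and 2.94% with RING1B (2.53% to 3.41%), and these intervals overlapped. Away from promoters they were 20.5% (15.1% to 27.1%) and 9.44% (8.08% to 11.0%). Near peaks passed in 19.9% and far peaks in 10.0% of cases, a difference of -9.86 points for far minus near (-18.2 to -1.49). The authors kept uniquely mapped reads, which lowers coverage in repeats, and whether mapping in repeats plays a part in the missing RING1B peaks was not tested.

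PCGF2 was nearly absent from RING1B-free peaks. Of the 281, 3 overlapped a PCGF2 peak (1.07%, 0.364% to 3.09%), where 48% of all SUZ12 peaks did. The PCGF2 list holds 3680 peaks, and 3568 RING1B peaks overlapped a PCGF2 peak, so the rule can by itself leave out most sites with PCGF2. The low share is therefore given as a description. The size of this difference depended on width. At 567 to 1286 bp the shares were 0.709% without RING1B (1 of 141 peaks) and 4.19% with RING1B (52 of 1240), a difference of -3.48 points (-4.88 to -0.139), far smaller than the -48.8 points over all widths. The lists do not give the depth behind a peak, so weaker PCGF2 signal at these sites would not be seen here.

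The 3 sites differed from each other. A peak of 1698 bp at chr11:34681674-34683371 lay in an intron of Dock2, which encodes a Rac activator of white blood cells, 101383 bp from the nearest TSS and 55646 bp from RING1B. It covered all 1666 bp of its PCGF2 peak, in a centre of 33.3% GC with a CpG observed/expected of 0.599. A short AT-rich stretch recurs with small changes along its printed window. The repeat share of this peak was 1.12%, so that measure did not take this in. Whether mapping plays a part at this site was not tested. A peak of 783 bp at chr11:24060347-24061129 lay 17318 bp from the TSS of Bcl11a, a zinc finger repressor of neural and blood lineages, and 9607 bp from RING1B, and all of it fell in a PCGF2 peak of 1099 bp. The third was 317 bp wide, at chr19:11090976-11091292 near Ms4a8a, with RING1B 754 bp away. Its PCGF2 peak of 2105 bp shared 221 bp with the SUZ12 peak and 1130 bp with a RING1B peak, so only the Dock2 and Bcl11a sites joined PCGF2 and SUZ12 peaks without any RING1B base.

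RING1B-free peaks lay away from promoters more often than other SUZ12 peaks. A promoter was taken as the 2500 bp on each side of a TSS of a curated RefSeq transcript. Of the 281 peaks, 110 overlapped a promoter (39.1%, 33.6% to 45.0%), where 77.1% of all SUZ12 peaks did. At 567 to 1286 bp the shares were 41.8% without and 71.6% with RING1B, a difference of -29.8 points (-38.0 to -21.1). Midpoints between genes numbered 96 (34.2%, 28.9% to 39.9%), where 12.4% of all SUZ12 peaks had theirs, and at 567 to 1286 bp the difference was 17.6 points (9.97 to 26.0). Introns held the midpoints of 58 RING1B-free peaks (20.6%) and of 8.66% of RING1B-bound SUZ12 peaks, and exons outside promoters held 24.

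Near and far peaks were placed differently within genes. Introns held 27.0% of near and 14.3% of far midpoints, a difference of -12.7 points for far minus near (-21.9 to -3.19). The shares at promoters were 34.8% for near and 43.6% for far peaks, and the interval of this difference, -2.57 to 19.9 points, included 0. Of the peaks at promoters, 26 of 61 far peaks but 3 of 49 near peaks contained a TSS (42.6% and 6.12%), a difference of 36.5 points (20.9 to 49.6). The midpoint of a promoter peak was a median of 483 bp from the nearest TSS for far peaks and 1830 bp for near peaks. RING1B was at the same promoter for 42 of 56 genes with a near peak there, and for 0 of 64 genes with a far peak. A RING1B-free peak cannot cover a TSS that a RING1B peak covers. The contrasts in TSS content and distance therefore partly follow from the rule and the split, and are given as a description. Among peaks with the midpoint in a promoter, 39 far peaks were downstream of the TSS and 21 upstream, while near peaks were 20 and 23. Both sets together contained a TSS in 26.4% of promoter cases, against 78.3% for RING1B-bound SUZ12 peaks, which were also wider. The size of this contrast depended on width. At 567 to 1286 bp, 14 of 59 promoter peaks without RING1B and 356 of 888 with RING1B contained a TSS, a much smaller contrast.

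**Figure D4:**
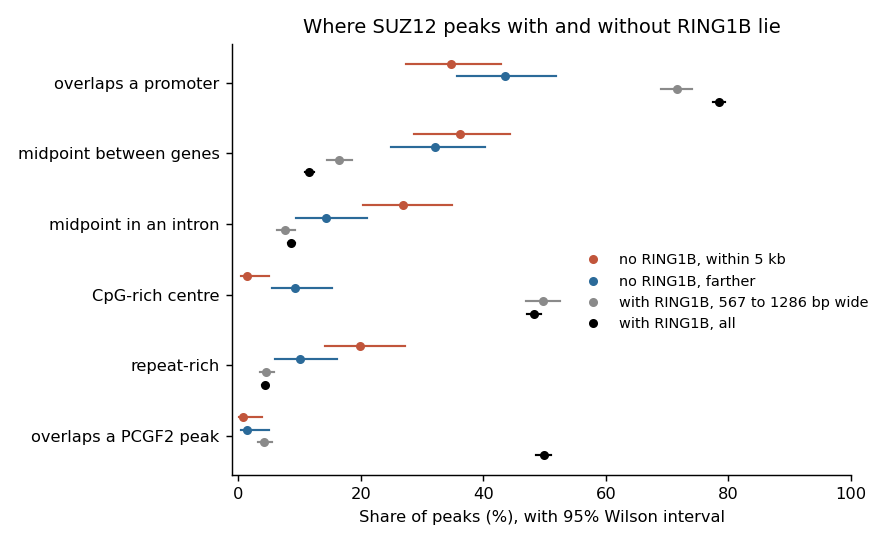
Share of peaks in percent (horizontal axis, with 95% Wilson intervals as lines) for 6 features (vertical axis), in near peaks (red), far peaks (blue), RING1B-bound SUZ12 peaks of 567 to 1286 bp (grey) and all RING1B-bound SUZ12 peaks (black). Both RING1B-free sets lie below the RING1B-bound ones for promoters and CpG-rich centres and above them between genes, and for PCGF2 the grey point at 4.19% lies much closer to the RING1B-free sets than the black one.

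**Figure D5:**
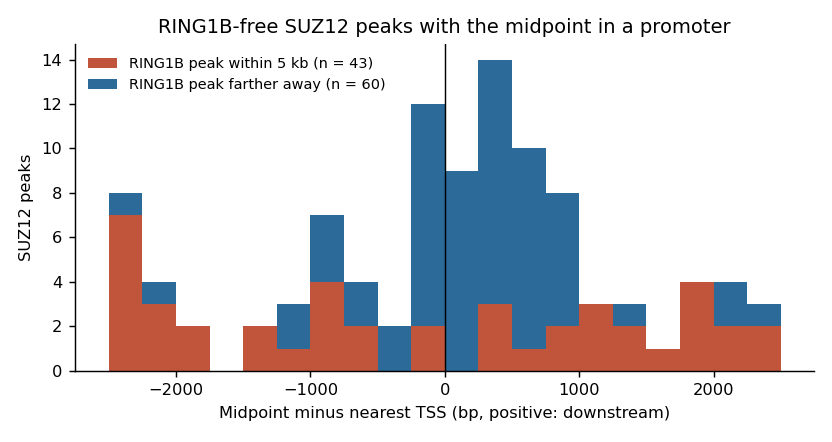
Number of RING1B-free SUZ12 peaks (vertical axis, stacked) by the position of the midpoint relative to the nearest TSS in bp (horizontal axis, positive values downstream), for the 43 near (red) and 60 far (blue) peaks with the midpoint in a promoter. The far peaks gather around the TSS, at a median distance of 483 bp over all far promoter peaks, and the near peaks are spread to the edges of the window, with a median of 1830 bp. This contrast partly follows from the rule and the split.

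At the level of genes, 120 genes had a RING1B-free SUZ12 peak at a promoter, out of 6487 genes with any SUZ12 peak there (1.85%, 1.55% to 2.21%). Of the 120, 42 also had RING1B at the same promoter, 12 had RING1B at another of their promoters only, and 66 (55%) had RING1B at none. All 42 belonged to near peaks, which follows from the definitions, since 2 peaks at a single promoter window cannot be more than 5 kb apart. Genes with SUZ12 but no RING1B at any promoter numbered 77, so that 98.8% of genes with SUZ12 at a promoter also had RING1B at one. Among 1440 CpG-rich TSSs without RING1B, 18 (1.25%, 0.792% to 1.97%) had a RING1B-free SUZ12 peak at the promoter. They were Lrp6, a Wnt co-receptor, Smurf1, a ubiquitin ligase of BMP signalling, Pxn, which encodes the focal adhesion protein paxillin, Mapk8ip1, a scaffold of kinase signalling, the receptor subunit gene Cacng2, and Atp6v0a1, Ctnnbip1, Entpd1, Fbxo4, Golga7b, Inpp5a, Lzts3, Mapkapk5, Mxd1, Prrc1, Tctn3, Ttc9b and Zfp978.

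The widest peaks that contained a TSS were mostly far peaks. After Npas4, Pik3r5 and Pcdhb13 came Resp18, an endocrine secretory protein (1844 bp), Golga7b (1811 bp), Tctex1d1 (1720 bp), Iglon5, a neuronal adhesion protein (1707 bp) and Cspg4, the NG2 proteoglycan (1704 bp). Further peaks covered the TSSs of Atp6v0a1, a proton pump subunit (1550 bp), Fam135b (1312 bp), Ereg, a growth factor of the EGF family (1311 bp), Vstm5 (1241 bp), Gm29480 (1159 bp) and Asic2, an acid-sensing ion channel (1103 bp). The 20 widest also held the paired transcripts 2900026A02Rik and 4833439F03Rik (1127 bp), Alox12b, a lipoxygenase of skin (1033 bp), Akap7, an anchor for protein kinase A (1017 bp), Cacng3 (983 bp), Abca4, a retinal transporter (928 bp), and Prkcz, an atypical protein kinase C (926 bp). Among these 20 the gap to RING1B ran from 3218 bp at Abca4 to 747935 bp at Fam135b, and only Pcdhb13 and Abca4 were near peaks. The centre at Iglon5 was 70.2% GC but reached a CpG observed/expected of only 0.495.

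The most isolated peaks were of several kinds. The farthest, 743 bp at chr5:60231328-60232070, lay 2497516 bp from RING1B and 245697 bp from the nearest TSS, that of 4933402J10Rik. A peak 59268 bp from Socs6 was 931551 bp from RING1B and had a CpG observed/expected of 0.105. Then came the promoters of Fam135b (747935 bp), Tmem74 (391798 bp), Asic2 (354317 bp), Cacng3 (297452 bp), Adamtsl1 (288615 bp) and Prrc1 (221438 bp). The remaining sites of the 10 were an intron of Dlg2, a synaptic scaffold (278978 bp), and a site between genes whose nearest TSS, 230156 bp away, was that of Aebp2, an accessory subunit of PRC2 (231442 bp).

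Over 12 gene lists, from 0 to 5 genes per list had a RING1B-free peak at a promoter, and the shares given for each list stand against the 1.85% of all genes with SUZ12. The lists were drawn up by symbol pattern, so they can leave out genes of the same kind, and each count holds for the listed symbols only. Of 199 homeobox genes, 185 had SUZ12 at a promoter and 2 of these (1.08%) had a RING1B-free peak, Nkx6-3 (540 bp wide, gap 1167 bp) and Pax4 (305 bp, gap 27092 bp), both factors of pancreatic and gut cells. Of 22 immediate-early genes with SUZ12, which respond to stimuli within minutes, Npas4 alone had a RING1B-free peak (4.55%). The ion channel list had 4 such genes of 111 (3.60%), Cacng2, Cacng3, Kcnh2 (gap 2680 bp) and Kcnk3 (gap 444 bp). That list takes in Cacng genes, which include the regulatory subunit gene Cacng2, and leaves out Asic2, which had a RING1B-free peak over its TSS. The neurotransmitter receptor list had 3 of 71 (4.23%), namely the nicotinic acetylcholine receptor subunits Chrna4 (gap 691 bp) and Chrnb2 (gap 8228 bp) and the kainate receptor subunit Grik1 (gap 792 bp). Hrh1 and Hrh2, which also had such a peak at a promoter, were not on it. MicroRNA genes had 4 of 123 (3.25%), Mir149, Mir3080, Mir692-3 and Mir707, and zinc finger genes had 1 of 96 (1.04%), Zfp978 (gap 62355 bp). The count was 0 for the symbols listed as solute carriers (137 genes with SUZ12), signalling ligands (53), non-clustered cadherins (22), pluripotency factors (7) and olfactory and vomeronasal receptors (3). Ereg, Clcf1, Sema3b and Dsc3, which had a RING1B-free peak at a promoter, were not on these lists. With so few genes, none of these shares, whether low or high, is read as a difference from the share of all genes.

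The clustered protocadherins, cell-surface proteins of neuronal self-recognition, had a RING1B-free SUZ12 peak at the promoters of 5 genes (Pcdhb11, Pcdhb13, Pcdhb14, Pcdhb16 and Pcdhb20) among 50 with SUZ12, a share of 10.0%. The Pcdhb20 promoter also held a RING1B peak. These 5 peaks formed the longest chain of RING1B-free peaks with less than 100 kb from each to the next, spanning 80041 bp.

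Most RING1B-free peaks stood alone. With neighbours joined when less than 100 kb apart, 241 of the 281 had no RING1B-free neighbour, 32 formed 16 pairs, and 2 longer chains held 8. Beside the protocadherin chain there was a chain of 3 peaks over 47788 bp at chr17:36205064-36252851, between the H2-T3 and Rpp21 genes of the major histocompatibility region. Its peaks were 1450, 1573 and 634 bp wide, none was at a promoter, and their gaps to RING1B were 8651, 2293 and 2442 bp. Another SUZ12 peak of any kind lay within 1 kb of 83 RING1B-free peaks and within 5 kb of 130. By chromosome, the RING1B-free share of SUZ12 peaks ran, leaving out chromosome Y with 0 of its 2 SUZ12 peaks, from 1.52% on chromosome 16 (3 of 198, 0.517% to 4.36%) to 6.03% on chromosome 19 (14 of 232, 3.63% to 9.87%), and these intervals overlapped.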

How the data were processed

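Cells were profiled by ChIP-seq after double cross-linking, with human HEK293T cells as an internal standard. Reads were mapped by the authors to a combined mm10 and hg19 genome (Bowtie 2). Reads without a unique place and duplicates (Sambamba) were discarded, and MACS2 in broad mode found peaks over Input. For RING1B and SUZ12 they called peaks on merged replicates and kept those found in untreated PRC1CPM and PRC1CKO cells. RING1B peaks also had to lose signal on tamoxifen in PRC1CKO cells, a filter that SUZ12 peaks did not pass through and that can leave RING1B peaks out. PCGF2 peaks were those found in every untreated PRC1CPM replicate. Sites on a custom blacklist were dropped. The deposited tables give peak boundaries in bp and no height, depth or replicate.

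Of the 3 lists, 0 peaks ran past a chromosome end of GRCm38.p6 and 0 overlapped the next peak of their list. Lists counted as overlapping from 1 shared base. TSSs, exons and introns were those of curated RefSeq transcripts, and repeats the lower-case bases of the reference. Shares carry Wilson intervals, differences Newcombe intervals and medians order-statistic intervals, all at 95%. A difference was called where its interval left out 0. No hypothesis test was run, since peaks are not replicates. Coordinates count from base 1.

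The peaks, gene lists and settings were chosen with earlier results of these data known. Named were the 10 widest and 10 farthest peaks, those overlapping PCGF2, the 3 on each side of the rule's threshold, the 20 widest that contain a TSS, those at CpG-rich promoters and genes of 12 lists. Printed windows came from the widest of these and from those overlapping PCGF2, in steps of 10 bp, and none from chromosome 18. A single peak that this rule names is not reported here. The overlap code was tested on simulated data. Software was samtools 1.23.1, pyfaidx 0.9.0.4 and pandas 2.3.3 in Python 3.11.15, with NumPy 2.4.6, SciPy 1.17.1 and matplotlib 3.10.9.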

Additional observations from a re-analysis of the deposited data

How the results depend on the processing

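Over 7 results, 50 alternatives were computed. All 38 alternatives of the 5 differences between RING1B-free and RING1B-bound SUZ12 peaks kept their direction and an interval without 0. Their ranges were -57.3 to -3.48 percentage points for PCGF2, -46.9 to -19.0 for CpG-rich centres, -50.4 to -27.0 for promoters, 15.6 to 28.5 for midpoints between genes and 4.30 to 11.7 for repeats. The PCGF2 value closest to 0 was that of similar widths. The rule can by itself leave out most sites with PCGF2. The direction of that difference was thus largely set beforehand, and its stability is no support for it.

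The number of RING1B-free peaks depended on the rule. The share was 6.59% with the midpoint in place of any shared base, 2.77% both when RING1B within 1000 bp counted and when SUZ12 peaks within 1000 bp were merged, and 1.73% for peaks of at least 1000 bp. The share within 5 kb of RING1B, 50.2%, became 71.4% with the midpoint rule and 30.2% after merging. With limits of 2 kb and 10 kb it became 38.8% and 61.9%. No paired analysis was possible because each list is a single set of positions with no values per replicate, and for the same reason no replicate could be left out. The lists give no depth, so how far weak RING1B signal was missed was not tested.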
